A study of Mus musculus with 12 samples.

Results

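TET2 oxidises 5-methylcytosine, and 2 amino acid exchanges in its catalytic centre (H1304Y and D1306A) remove this activity. The comparison described here asks which genes differed between primed embryonic stem cells (ESCs) that carried WT TET2 and primed ESCs that carried this catalytic mutant. It took the 3 WT serum and the 3 Mut serum samples of the gene table, 6 of the 12 RNA-seq samples of the series, and it was made both without and with pairing by replicate number. Of the 26061 genes in the table, 14185 were tested and 13628 of these were autosomal. All groups were mouse ESCs with the Tet2 KO background, in which exon 14 of Tet2 had been targeted, and all had received the shRNA against Setdb1 (shSetdb1) followed by puromycin selection. Either rescue construct was stably integrated with a PiggyBac transposon. WT serum and Mut serum cells grew in serum with LIF (primed), and WT 2i and Mut 2i cells in 2i medium with LIF and inhibitors of MEK and GSK3 (naïve). How many clones made up each rescue line, and which promoter drove the construct, are not given in the sources used here. The same rescue lines supplied both media, so a difference between the catalytic domains and another difference between the lines cannot be told apart. No library with a control shRNA was analysed here, so the values compare the lines after SETDB1 depletion.

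ESCs in serum are poised for differentiation and keep high DNA methylation, while 2i holds them in a ground state with low methylation. DNA methylation is best known for silencing imprinted alleles, germline genes and retrotransposons, and TET enzymes act against it at promoters and enhancers. SETDB1 places H3K9me3, a repressive histone mark, on retrotransposons and on some germline genes. A small share of ESCs in any culture passes through a 2-cell-like state, in which genes of the cleavage-stage embryo such as the Zscan4 cluster are transcribed.

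Gene totals of the primed libraries lay between 8066662 and 11140836 reads, except WT serum 3 with 21335933. Throughout, values are variance-stabilised log2 values, in which a gene without reads has a value of 3.81, and a difference is the mean of the WT libraries minus the mean of the Mut libraries on that scale. The scale compresses low counts, so a difference understates the fold change of genes with few reads. The 9 pluripotency markers examined, among them Pou5f1, Sox2 and Nanog, lay between 11.5 and 14.2 in every primed library. Dnmt3l, a cofactor of de novo methylation, was at 11.7 to 12.6 in primed and 6.73 to 7.59 in naïve libraries. Setdb1 was read at 8.19, 8.22 and 8.40 in WT serum 1, 2 and 3 and at 7.52, 8.26 and 8.55 in Mut serum 1, 2 and 3, which overlapped.

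Tet2 itself was at 14.81, 14.58 and 15.09 with WT TET2 and at 12.50, 13.20 and 13.27 with the mutant, given here and below in the order of replicates 1 to 3. The WT libraries were all above the mutant ones, by 1.84 ± 0.34 (SE of the fit, limma, adjusted p = 0.0297). The gene lies on chromosome 3 of mm9, from 133126643 to 133207354, and construct and endogenous reads were not separated. Thus the primed lines differed in the level of Tet2 RNA as well as in the catalytic domain, and the RNA values alone cannot tell these apart. TET2 protein was not analysed here.

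Between the primed lines, 27 autosomal genes passed an adjusted p of 0.05. Of these, 20 were higher with WT TET2 (0.147% of the autosomal genes tested) and 7 were lower (0.0514%). Differences ranged from 0.80 to 2.48 in size, and in all 27 genes the libraries of the groups did not overlap. Of the 9 other genes called, all were on the Y chromosome, where 14 genes were tested. Many more autosomal genes were separated without passing the test. WT libraries lay above all mutant libraries in 11.5% of autosomal genes and below all of them in 10.9%, and 2202 had an unadjusted p under 0.05. An exact permutation test of 3 against 3 libraries cannot give a p below 0.1, so single genes were judged by limma alone. Whether the libraries came from separate cultures is not stated, so the p-values measure only the spread between these libraries.

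**Figure D1:**
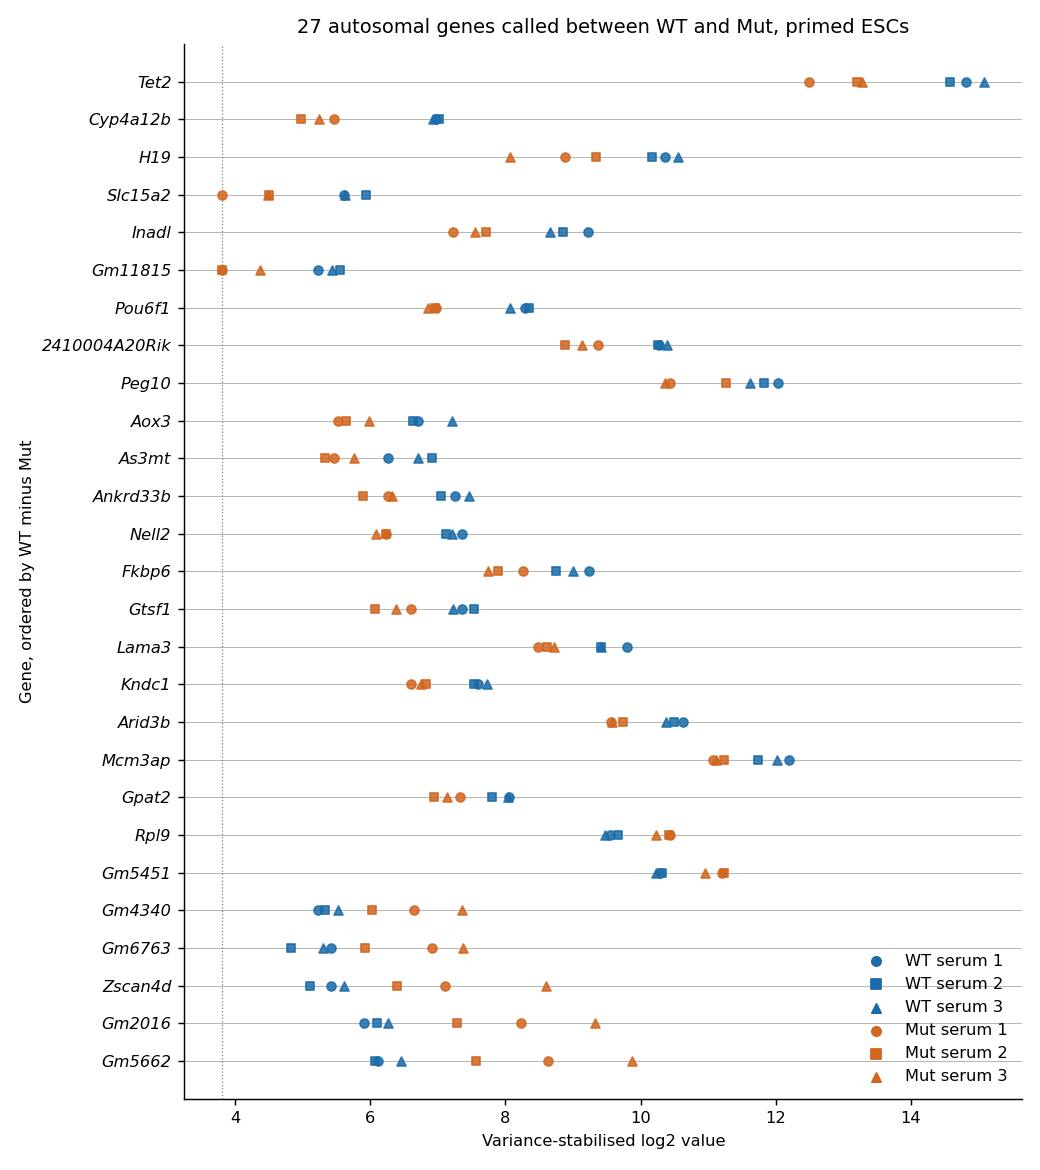
Variance-stabilised log2 value (x axis) of the 27 autosomal genes called in primed ESCs (y axis, ordered by difference), with 1 point for each of the 6 libraries, WT in blue and Mut in orange, the marker shape giving the replicate, and the dotted line marking a gene without reads. The colours separate in every row, Mut serum 3 lies farthest right in the 5 genes at the bottom, and Gm11815 touches the dotted line in Mut serum 1 and 2 and Slc15a2 in Mut serum 1.

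The number of calls moved with single libraries. Without Mut serum 3, the library that stood apart from the other 5 on the second principal component (34.4% of the variance), 68 autosomal genes were called, 33 higher and 35 lower. Without Mut serum 1 there were 6 higher and 1 lower, and without WT serum 1, 2 or 3 there were 5, 8 and 5 higher and 0, 3 and 2 lower (without WT serum 1, 577 lower ones had an unadjusted p under 0.05). Without Mut serum 2 there were 7 higher and 21 lower.

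The difference between the groups followed the length of the transcripts. Over 5 bins of autosomal genes by exon length, the median difference went from -0.20 in the shortest (median 1181 bases) through -0.07, 0.01 and 0.08 to 0.22 in the longest (median 7834 bases). Over the 13628 genes, which are not independent replicates, Spearman's correlation of length with the difference was 0.435. WT libraries lay below all mutant ones in 21.9% of the shortest and 3.26% of the longest genes. Mut serum 1 was the most extreme library, 0.257 above the gene mean in the shortest bin and 0.245 below it in the longest. In naïve ESCs, with the same rescue lines, the medians went from -0.18 to 0.15. Histone genes, whose main transcripts lack a poly(A) tail, also varied widely between libraries, from a median deviation of 0.62 in Mut serum 1 to -1.05 in Mut serum 3. The part of length or RNA quality in the calls was not tested beyond centring each library within bins of exon length, an alternative chosen after the values were seen. After centring, 24 autosomal genes were called, of which 18 were among the 27, so 9 of the 27 lost their call. The newly called genes were Cyp4a12a, Elf3, Krt19, Nlrp9c, Rpl39l and Sec63.

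**Figure D2:**
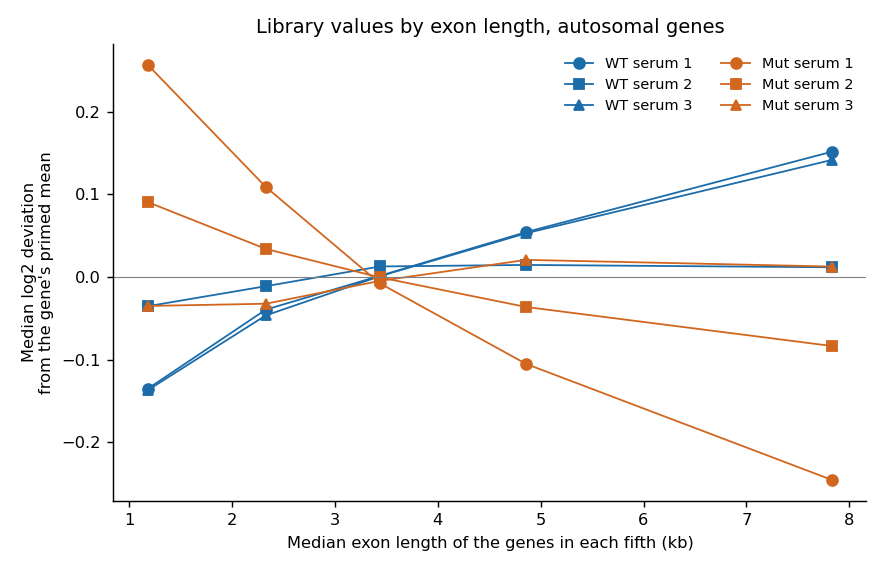
Median deviation of each primed library from the gene's mean over the 6 libraries (log2, y axis) against the median exon length of 5 bins of autosomal genes (kb, x axis), WT in blue and Mut in orange. The line of Mut serum 1 runs from 0.257 to -0.245, those of WT serum 1 and WT serum 3 run the other way, and those of WT serum 2 and Mut serum 3 are nearly flat.

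Of the 27 genes, 4 were called in every alternative in which they were tested, each library left out included. They were Inadl, Cyp4a12b, Slc15a2 and Gm11815, and all 4 were higher with WT TET2. With 1 library left out, the call was lost in 5 of 6 fits for Tet2, H19, Peg10, Lama3, Arid3b, Pou6f1, Aox3, Kndc1 and Gm5451. It was lost in 4 for Rpl9, Mcm3ap, Gtsf1, Ankrd33b and As3mt, and in 3 for Fkbp6. Inadl encodes a scaffold protein of the Crumbs polarity complex at tight junctions. Its values were 9.21, 8.85 and 8.66 with WT TET2 and 7.22, 7.72 and 7.56 with the mutant, a difference of 1.41 ± 0.19 (adjusted p = 0.00204). Cyp4a12b encodes a fatty acid hydroxylase of the cytochrome P450 family. It was at 6.97, 7.01 and 6.93 against 5.47, 4.98 and 5.23, a difference of 1.74 ± 0.25 (adjusted p = 0.00363). The WT libraries were within 0.1 of each other, and the nearest mutant library lay far below them.

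Slc15a2 encodes a proton-coupled transporter of small peptides. It was covered by 17, 30 and 48 reads in the WT libraries and by 0, 3 and 3 in the mutant ones, and differed by 1.46 ± 0.21 (adjusted p = 0.00363). Gm11815, a processed transcript of no known function, had 10, 19 and 37 reads against 0, 0 and 2 and differed by 1.41 ± 0.19 (adjusted p = 0.00271). At such counts the log2 values lie close to the lowest value, and limma-voom on the recovered reads gave larger log2 differences of 3.74 for Slc15a2 and 4.30 for Gm11815. Cyp4a12b has a near relative 78809 bases away, Cyp4a12a, which differed by 1.09 without passing the test (adjusted p = 0.0541), and reads that match both cannot be assigned to one.

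An IAP long terminal repeat lies inside Inadl, and another lies beside Gm11815. IAPs are the retrotransposons on which the study worked, and its PCR primer pair for the subtype IAPLTR1 was matched to mm9 to find copies, since these oligos show which sequence is meant.
IAPLTR1 forward: CAGCCAATCAGGGAGTGAC
IAPLTR1 reverse: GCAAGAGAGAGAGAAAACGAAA
In capitals, the whole primer is shown, 5′ to 3′. Exact matches to both primers, facing each other within 500 bases, were found at 1021 autosomal places. Inadl (chromosome 4, 98062476 to 98386294, plus strand) holds 1 of them, at 98121251 to 98121332 on its own strand, 58775 bases downstream of the gene's start. It lies inside exon 15 of 15 of an annotated Inadl transcript, and the gene has 14 annotated transcripts. That exon runs from 98121051 to 98121398. Gm11815 (chromosome 4, 10415103 to 10416509, minus strand) begins 91 bases from a match at 10416600 to 10416682, which is on its strand and upstream of it. Within 10000 bases of a match lay 2 of the 27 called genes (7.41%) and 124 of all autosomal genes tested (0.910%). The share was 1.47% of the genes in which WT libraries were above all mutant ones and 0.805% of those in which they were below. Within 50000 bases lay the same 2 called genes and 323 of all autosomal genes tested (2.37%). There the share was 3.19% of the genes with WT libraries above all mutant ones and 2.35% of those with WT libraries below. In the alignment, a read that fitted several places equally well was given to 1 of these by chance, so reads from other IAP copies could be counted in the Inadl exon. Their part in its value was not tested, since reads per exon were not used here.

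Genes of the 2-cell-like state were lower with WT TET2. The list held 14 tested autosomal genes. WT libraries lay below all mutant libraries in 11 of them and above in 1, against 10.9% and 11.5% of all autosomal genes, and the median difference was -1.23, against 0.01 over all autosomal genes. Gm5662, Zscan4d, Gm6763 and Gm4340 fell, and no member was called higher. Zscan4d belongs to the Zscan4 cluster, whose SCAN-domain zinc finger proteins mark the 2-cell stage. It was at 5.41, 5.10 and 5.61 with WT TET2 and at 7.11, 6.39 and 8.60 with the mutant, a difference of -1.99 ± 0.38 (adjusted p = 0.0336). Gm5662, on chromosome 12, was at 6.12, 6.07 and 6.45 against 8.63, 7.57 and 9.87, a difference of -2.48 ± 0.39 (adjusted p = 0.00907). The mutant libraries were much farther apart than the WT ones, with Mut serum 2 lowest and Mut serum 3 highest.

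On chromosome 12 as well, Gm2016, which was not in the list, fell by 2.19 (SE 0.36, adjusted p = 0.0134). On chromosome 10, Gm6763 fell by 1.55 and its neighbour Gm4340 fell by 1.32. Zscan4c and Zscan4f differed by -1.60 and -1.64 with an adjusted p of 0.0537 each, and Zscan4e and Zscan4b by -1.30 and -1.15. Arg2, Gm12794 and Usp17l5 also had all WT libraries below all mutant ones, by -0.93, -1.05 and -0.87. Zfp750, a zinc finger regulator of epidermal genes, was the member with WT libraries above all mutant ones, at 0.78. These genes have near-identical copies, so the division of reads among Zscan4 genes or among the genes on chromosome 12 or chromosome 10 is uncertain. Where copies share reads, the counts over the list may not be counts of separate genes. Without Mut serum 3, the median of the list was -0.73, and 11 of 14 members still had both remaining mutant libraries above all WT ones, where 22.6% of autosomal genes had. Gm6763 and Gm4340 then lost their call, and the other 5 lower genes kept theirs. Over the 6 fits with 1 library left out, Gm5662 lost its call in 2 and Zscan4d in 4. Gm6763 and Gm4340 lost theirs in 5 each, and without WT serum 1 no autosomal gene was called lower. In bulk RNA, fewer cells in this state and less RNA per cell cannot be told apart. Summed reads of the list per 1000000 gene reads were 400.8 to 512.7 in WT libraries and 438.7 to 788.9 in mutant ones, which overlapped. Eif1a, a widely expressed member that differed by -0.09, gave 374.4 to 490.5 and 359.4 to 564.2 of these reads. Without it the sums were 22.3 to 31.3 and 49.0 to 224.7. In naïve ESCs the median of the list was -0.64. There, WT libraries were below all mutant ones in 9 of 14 and above in 1, where 8.19% and 8.53% of autosomal genes were.

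**Figure D3:**
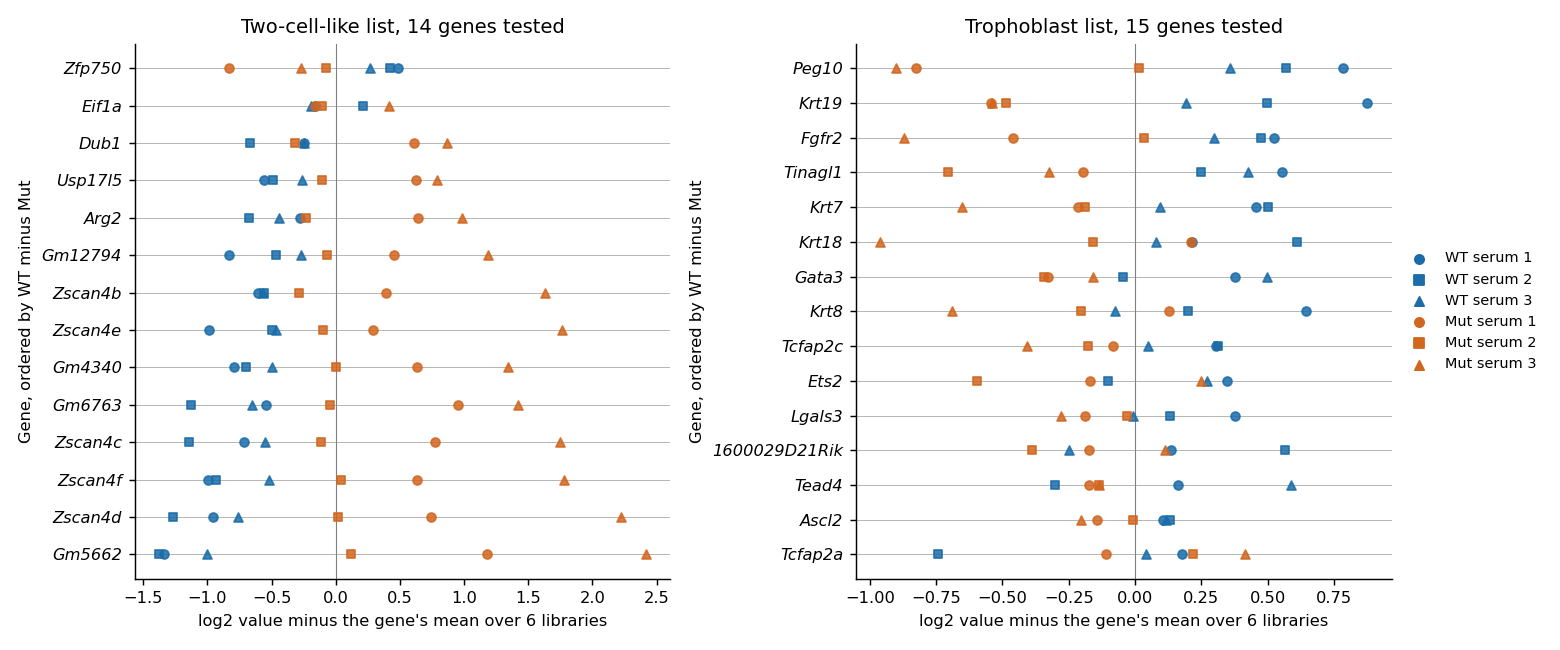
Deviation of each primed library from the gene's mean over 6 libraries (log2, x axis) for the 14 tested genes of the 2-cell-like list (left) and the 15 of the trophoblast list (right), each ordered by difference, WT in blue and Mut in orange. In the left panel Mut serum 3 is the rightmost point for 13 genes, and in the right panel the mutant points lie left of all WT points for 9 genes.

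In the germline list 2 genes were called, both higher with WT TET2. Of 44 tested members, WT libraries lay above all mutant ones in 6 and below in 6, near the background of 11.5% and 10.9%, with a median of 0.04. The called members were Fkbp6 and Gpat2, and Gtsf1, which the list did not hold, was also called higher. Fkbp6 encodes a co-chaperone, Gpat2 a mitochondrial acyltransferase and Gtsf1 a small zinc finger protein, and each is known from the PIWI pathway of male germ cells. Fkbp6 was at 9.23, 8.75 and 8.99 against 8.26, 7.90 and 7.75, a difference of 1.03 ± 0.19 (adjusted p = 0.0285). Gtsf1 was at 7.35, 7.54 and 7.23 against 6.61, 6.07 and 6.37, a difference of 1.02 ± 0.19 (adjusted p = 0.0310). Gpat2 was at 8.05, 7.80 and 8.04 against 7.33, 6.95 and 7.13, a difference of 0.83 ± 0.16 (adjusted p = 0.0463). In each of them the lowest WT library was above the highest mutant library, but Gpat2 was called in none of the fits with 1 library left out.

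Other germline genes were separated in either direction without being called. Piwil2, a PIWI protein, lay above in all WT libraries (0.44, adjusted p = 0.372). Mael, which acts in germ granules, lay below (-0.40, adjusted p = 0.404), and so did Ddx4, the helicase that marks germ cells (-0.66, adjusted p = 0.247). Dazl, a germ cell RNA-binding protein whose promoter is often used to follow germline methylation, differed by 0.02 ± 0.36 (adjusted p = 0.988). Meiotic cohesin Smc1b was at 8.62, 8.50 and 8.38 against 7.25, 7.14 and 7.75, which was separated but not called (1.12 ± 0.42, adjusted p = 0.233). Sycp1, of the synaptonemal complex, lay below in all WT libraries, at -0.91 (adjusted p = 0.193).

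TET2 acts on CpG dinucleotides, so the promoters of the called germline genes, 250 bases before to 50 after the start in RefSeq, are shown with each CpG in capitals, next to that of Zscan4d, the called gene in the other direction.
Fkbp6: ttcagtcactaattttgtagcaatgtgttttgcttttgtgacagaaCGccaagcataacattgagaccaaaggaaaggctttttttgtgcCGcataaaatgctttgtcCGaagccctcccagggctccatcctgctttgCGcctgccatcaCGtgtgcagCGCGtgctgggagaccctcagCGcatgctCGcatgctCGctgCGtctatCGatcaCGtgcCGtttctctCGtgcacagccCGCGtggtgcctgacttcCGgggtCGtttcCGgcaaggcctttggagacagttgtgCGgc
Gpat2: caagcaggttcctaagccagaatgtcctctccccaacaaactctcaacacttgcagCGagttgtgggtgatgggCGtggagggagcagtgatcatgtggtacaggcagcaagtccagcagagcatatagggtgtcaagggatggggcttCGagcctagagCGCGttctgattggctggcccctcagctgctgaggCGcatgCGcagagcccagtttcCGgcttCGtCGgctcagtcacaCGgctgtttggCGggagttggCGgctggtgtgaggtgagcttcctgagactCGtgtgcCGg
Gtsf1: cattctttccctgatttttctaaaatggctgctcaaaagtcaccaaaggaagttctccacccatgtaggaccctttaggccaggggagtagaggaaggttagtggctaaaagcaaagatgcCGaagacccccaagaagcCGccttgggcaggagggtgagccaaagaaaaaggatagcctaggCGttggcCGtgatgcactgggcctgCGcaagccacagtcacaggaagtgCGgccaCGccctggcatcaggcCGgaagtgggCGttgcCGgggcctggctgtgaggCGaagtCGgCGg
Zscan4d: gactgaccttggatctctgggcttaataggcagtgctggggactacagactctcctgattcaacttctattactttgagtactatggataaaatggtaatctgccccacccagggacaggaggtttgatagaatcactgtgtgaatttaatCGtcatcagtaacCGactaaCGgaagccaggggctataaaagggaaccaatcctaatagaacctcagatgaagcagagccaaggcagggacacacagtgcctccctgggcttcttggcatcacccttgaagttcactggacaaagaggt
Each sequence is written 5′ to 3′ along its gene and matched mm9 exactly once on its chromosome, Fkbp6 at chr5:135825865-135826164 (minus), Gpat2 at chr2:127250685-127250984 (plus), Gtsf1 at chr15:103260809-103261108 (minus) and Zscan4d at chr7:11751448-11751747 (minus). They hold 21, 15, 13 and 3 CpGs. Of the 9064 tested autosomal genes with a RefSeq promoter, 51.9%, 71.4%, 76.7% and 96.6% held at least as many. Over the 12 of 20 genes called higher that had such a promoter the median was 18 CpGs, against 21 over all, and over the 3 of 7 called lower it was 3. Methylation at these promoters was not used here.

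Among imprinted genes, the maternally expressed long non-coding RNA H19 and the paternally expressed Peg10 rose, while the tested neighbours in their clusters were not called. H19 (chromosome 7, 149761434 to 149764048) was at 10.36, 10.17 and 10.55 with WT TET2 and at 8.89, 9.34 and 8.06 with the mutant, a difference of 1.60 ± 0.30 (adjusted p = 0.0323). Igf2, the paternally expressed partner of H19 in its cluster, differed by 0.12 (adjusted p = 0.840). Peg10, derived from a retrotransposon and needed for the placenta, was at 12.04, 11.82 and 11.61 against 10.43, 11.27 and 10.35, a difference of 1.14 ± 0.21 (adjusted p = 0.0303). Mut serum 2 was close to the WT libraries for Peg10. Its neighbour Sgce, imprinted in the same direction and starting 102 bases away, differed by 0.61 (adjusted p = 0.274). Of the 48 imprinted genes tested, WT libraries were above all mutant ones in 9 (18.8%) and below in 6 (12.5%). Over all autosomal genes it was 11.5% and 10.9%. The median of the list was 0.00. Sfmbt2 and Igf2r had the largest differences among those not called, 0.91 and 0.83, and Ddc and Mirg the lowest, -0.66 and -0.58. Thus the median of the list was near the 0.01 of all autosomal genes, with H19 and Peg10 far above it. H19 and Peg10 each lost their call in 5 of the 6 fits with 1 library left out.

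Genes of the trophoblast list lay higher with WT TET2 in primed ESCs. Of the 15 tested, WT libraries were above all mutant libraries in 9, against 11.5% of autosomal genes, and below in none. The median was 0.51, and Peg10, the one called, is also in the imprinted list. Krt19, a keratin of simple epithelia, was at 6.78, 6.41 and 6.10 against 5.36, 5.42 and 5.37, and differed by 1.05 ± 0.23 (adjusted p = 0.0625). Fgfr2, the receptor through which FGF4 maintains trophoblast stem cells, was at 9.45, 9.40 and 9.22 against 8.47, 8.96 and 8.05 (0.86 ± 0.27, adjusted p = 0.193). Krt7 and Tinagl1 differed by 0.70 and 0.82, and the trophoblast factors Gata3 and Tcfap2c by 0.56 and 0.44, each without overlap. The summed reads of the 25 listed genes were 592.8 to 706.1 per 1000000 gene reads in WT libraries and 303.1 to 444.8 in mutant ones. Peg10 alone gave 274.6 to 352.3 and 108.4 to 205.9 of these, and without it the sums were 318.2 to 353.8 and 194.7 to 238.9. Tpbpa and Prl3d1, which define later placental cells, had no reads in any primed library. In naïve ESCs the median was -0.10, and WT libraries were above all mutant ones in 1 member and below in 2.

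Epithelial adhesion genes that were not keratins were less separated. Of 23, WT libraries were above all mutant ones in 3 and below in none, against 11.5% and 10.9% of all autosomal genes. Their median was 0.17. Dsp, of desmosomes, differed by 0.77 (adjusted p = 0.293). Lama3, a laminin chain of epithelial basement membranes on chromosome 18 that was not in the list, was at 9.80, 9.42 and 9.41 against 8.48, 8.62 and 8.72 and rose by 0.94 ± 0.16 (adjusted p = 0.0196). The lists of other cell types held no call, and their counts are to be read against the same 11.5% above and 10.9% below. Neural genes were above in 1 and below in 5 of 14, with a median of -0.32 and the lowest values for Gap43 (-0.81) and Nefl (-0.66). Primitive endoderm genes were above in 2 and below in 2 of 14, streak and mesoderm genes above in 1 and below in 1 of 13, and fibroblast genes above in 2 and below in 3 of 13. Col1a2, Col3a1 and 8 other fibroblast markers had no reads in the primed libraries, and neither had Ttr and Afp of the endoderm and Dcx of neurons.

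**Figure D4:**
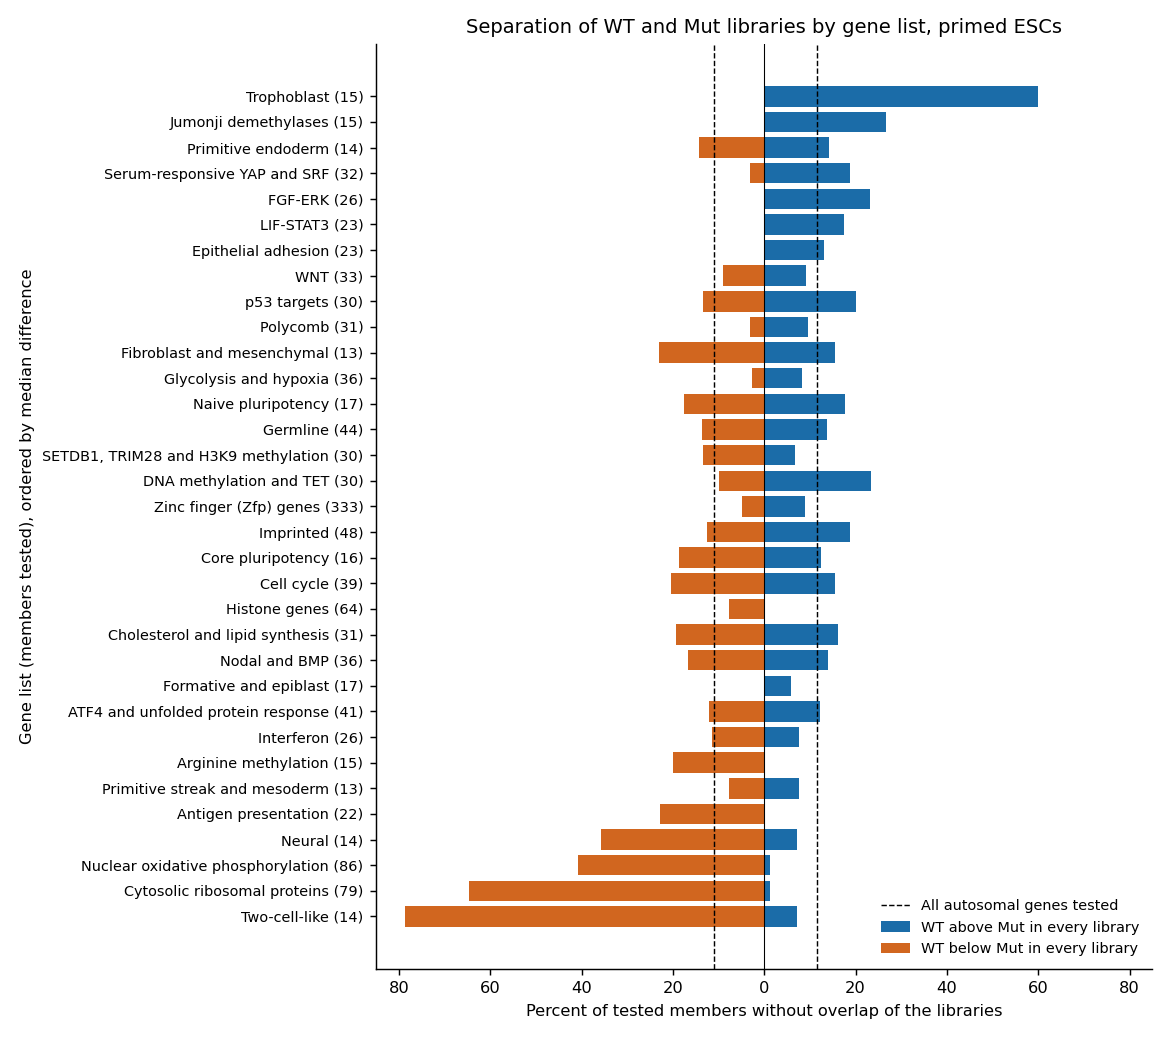
Share of the tested members of each gene list (y axis, number of members in brackets, lists with at least 10 tested members, ordered by median difference) in which all WT libraries lay above (blue, right) or below (orange, left) all Mut libraries of primed ESCs (percent, x axis), with dashed lines at the 11.5% and 10.9% of all autosomal genes. The 2-cell-like (78.6%), ribosomal protein (64.6%) and oxidative phosphorylation (40.7%) lists reach far left and the trophoblast list (60.0%) far right.

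Genes for ribosomal proteins and for oxidative phosphorylation, which are short, lay lower with WT TET2. WT libraries were below all mutant ones in 51 of 79 cytosolic ribosomal protein genes and above in 1, against 10.9% and 11.5% of all autosomal genes. The median of the ribosomal list was -0.50. Rpl9 was called, at 9.55, 9.66 and 9.47 against 10.44, 10.41 and 10.22, and fell by 0.80 (SE 0.13, adjusted p = 0.0158). Ribosomal protein genes have many processed copies with near-identical sequence, so this value may include reads of other copies. Rpl39l, a germline paralogue, was the one above, at 0.62 (adjusted p = 0.211). Of 86 nuclear genes for oxidative phosphorylation 35 were below and 1 was above, beside the same background. Their median was -0.41, and Uqcrh was at -0.79 (adjusted p = 0.160). Median exon lengths of the ribosomal and oxidative phosphorylation lists were 1422 and 1328 bases. Both lists shifted in the direction that the length trend described above has for short genes. Within exon-length bins the medians were -0.38 and -0.24, and 46 of 79 and 27 of 86 genes had WT libraries below all mutant ones, where 10.1% of all autosomal genes had. Without Mut serum 3 it was 72 of 79 and 68 of 86, where 22.6% of all autosomal genes had. The ribosomal list deviated by 0.57 in Mut serum 1, 0.20 in Mut serum 2 and 0.03 in Mut serum 3, and in naïve ESCs its median was -0.52. Gm5451, a short gene on chromosome 13, was also called lower, by -0.85 ± 0.16 (adjusted p = 0.0300). This was 1 of the 9 calls lost within exon-length bins.

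The machinery that writes, reads and removes DNA methylation showed no call besides Tet2. Of 30 genes tested, WT libraries were above all mutant ones in 7 and below in 3, against 11.5% and 10.9% of all autosomal genes. The 7 include Tet2, whose reads were not separated from those of the construct. Tet1, the other abundant TET enzyme of ESCs, was at 12.03, 11.36 and 11.79 against 10.43, 11.26 and 11.36, with Mut serum 3 just below WT serum 2 (0.71 ± 0.26, adjusted p = 0.225). Dnmt1, the maintenance methyltransferase, differed by 0.56, its cofactor Uhrf1 by 0.46 and the de novo enzyme Dnmt3b by 0.55, each separated with adjusted p values of 0.279, 0.230 and 0.332. Dnmt3a, Dnmt3l, Tdg and Tet3 differed by -0.04, 0.34, -0.11 and 0.61 with overlap. In the H3K9 methylation list, 2 of 30 members were above and 4 below, beside the same background. Atf7ip, the partner that stabilises SETDB1, differed by 0.68 (adjusted p = 0.216), and Trim28, which recruits SETDB1 to retrotransposons, by 0.14.

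The arginine methylation list holds protein arginine methyltransferases, their partners and enzymes that act on methylated arginine. WT libraries were above all mutant ones in none of its 15 members and below in 3, against 11.5% and 10.9% of all autosomal genes. These were Prmt7, a methyltransferase, and Clns1a and 2410022L05Rik, partners of PRMT5, at -0.36 and -0.63. Prmt7 was at 10.58, 10.55 and 10.34 against 11.11, 11.04 and 10.72 and differed by -0.47 ± 0.15 (adjusted p = 0.205). Prmt5 and the arginine demethylase candidate Jmjd6 differed by 0.07 and 0.06. Jumonji histone demethylases, which are long genes, were above in 4 of 15 and below in none, with a median of 0.32 that became 0.14 within exon-length bins. Without Mut serum 3 they were above in 10 of 15, where 22.7% of autosomal genes were. Polycomb genes were above in 3 and below in 1 of 31.

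Pluripotency genes were not called, apart from Tet2, which the naïve list holds. Core factors were above in 2 and below in 3 of 16, against 11.5% and 10.9% of all autosomal genes. Sox2 and Nanog differed by 0.03 and -0.12 with overlap. Pou5f1 differed by -0.34 (adjusted p = 0.373), and Tdgf1, the Nodal co-receptor, by -0.63 (adjusted p = 0.135). In the naïve list, WT libraries were above all mutant ones in 3, Tet2 among them, and below in 3 of 17, beside the same background. The median of this list was 0.09. Tcfcp2l1, a factor of the naïve network that is induced by LIF, was at 10.94, 10.31 and 11.00 against 9.72, 9.64 and 10.17. It differed by 0.91 ± 0.20 (adjusted p = 0.0791). The list members Manba and Spp1 were separated the other way, at -0.46 and -0.42.

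Signalling lists held no call, and the counts in them are to be read against the 11.5% of all autosomal genes with WT libraries above all mutant ones and the 10.9% with WT libraries below. FGF-ERK genes were above in 6 of 26 and below in none, with a median of 0.20 that became 0.10 without Mut serum 3. LIF-STAT3 genes were above in 4 of 23 and below in none. Serum-responsive genes were above in 6 and below in 1 of 32, with a median of 0.20 that also became 0.10 without that library. WNT genes were above in 3 and below in 3 of 33, and Nodal and BMP genes above in 5 and below in 6 of 36. Inhbb, which encodes an activin subunit, differed by 0.80 and Tagln, an SRF target of contractile cells, by -0.76. Interferon genes were above in 2 and below in 3 of 26. Antigen presentation genes were above in none and below in 5 of 22, with a median of -0.23 and Psmb9, an immunoproteasome subunit, at -0.63 (adjusted p = 0.155). Without Mut serum 3 they were below in 14 of 22 (63.6%), where 22.6% of all autosomal genes were, and the median was -0.37. Cell cycle genes were above in 6 and below in 8 of 39, p53 targets above in 6 and below in 4 of 30, and ATF4 and unfolded protein response genes above in 5 and below in 5 of 41. For cholesterol and lipid synthesis it was 5 and 6 of 31, and for glycolysis and hypoxia 3 and 1 of 36. Zinc finger (Zfp) genes, many of which recruit TRIM28 to repeats, were above in 30 and below in 16 of 333. Of the histone genes 0 of 64 were above and 5 below, with a median of -0.05. Without Mut serum 3, in which they were lowest, 50 of 64 (78.1%) were below and the median was -0.54. The Hox clusters had 4 tested genes, with 1 below, and the clustered protocadherins 2, with 1 above.

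The other called genes were all higher with WT TET2. As3mt, which methylates arsenic, was at 6.27, 6.91 and 6.70 against 5.47, 5.34 and 5.76 (1.11 ± 0.20, adjusted p = 0.0285). Aox3, an aldehyde oxidase, was at 6.70, 6.64 and 7.21 against 5.52, 5.64 and 5.98 (1.14 ± 0.21, adjusted p = 0.0297). Its paralogue Aox4, 9699 bases away, differed by 0.14. Nell2, a secreted ligand of neurons, differed by 1.05 ± 0.20 (adjusted p = 0.0310), and Kndc1, a guanine exchange factor of dendrites, by 0.89 ± 0.17 (adjusted p = 0.0310). Nell2 lost its call without any 1 of the 6 libraries.

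Regulators of transcription and RNA export completed the list. Pou6f1, a POU domain transcription factor, was at 8.30, 8.35 and 8.06 against 6.97, 6.96 and 6.85 (1.31 ± 0.24, adjusted p = 0.0285). The mutant libraries were within 0.2 of each other. Arid3b, a DNA-binding protein, and Mcm3ap, which acts in mRNA export, differed by 0.87 ± 0.17 and 0.84 ± 0.16 (adjusted p = 0.0336 and 0.0354). Of the called genes, Arid3b, Mcm3ap, Lama3 and Nell2 overlap Gm17231, Ybey, Gm17506 and Tmem117 on the opposite strand, and the libraries kept no strand. Gm11815, 2410004A20Rik and Gm2016 overlap 1700123O12Rik, Gm20509 and, for Gm2016, BB287469 and Gm2075 on their own strand, so reads from these genes cannot be fully separated either. Ankrd33b differed by 1.10 ± 0.19 (adjusted p = 0.0196). 2410004A20Rik, at 10.27, 10.26 and 10.39 against 9.37, 8.87 and 9.13, differed by 1.18 ± 0.24 (adjusted p = 0.0475) and lost its call without any 1 of the 6 libraries. Within 1000000 bases of each other lay 2 pairs of called genes, Gm6763 and Gm4340, 16204 bases apart on chromosome 10, and Gm5662 and Gm2016, 392701 bases apart on chromosome 12. Between Gm6763 and Gm4340 lies the uncalled Gm8766 (-1.51, adjusted p = 0.0860). Among the 54 tested neighbours of the called genes, with Gm8766 counted once for each of its sides, none was called, their median difference was 0.11, and the extremes were Zscan4c at -1.60 and Cyp4a12a at 1.09.

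Among genes that were separated without being called and well expressed, the largest positive differences were those of Mtap1a, a microtubule protein of neurons (1.13), Smc1b, Ttn, the giant protein of muscle (1.06), Clec2g (1.02) and Dock1, a Rac activator (1.02). Podxl, a sialomucin of ESC surfaces, Atp2b4, a calcium pump, Eps8l2, St8sia1 and Rcsd1 followed with 0.99, 0.99, 0.96, 0.95 and 0.93. The largest negative ones were Gm5624 (-1.03) and Gng10, a G protein subunit (-1.01). They were followed by Immp1l, a mitochondrial peptidase (-0.93), Gm16685 (-0.91), Sycp1, Gm20503 (-0.90), 1810027O10Rik (-0.89), Znhit3 (-0.87), Sec63, of protein translocation (-0.86), and Rpl22l1, a ribosomal protein paralogue (-0.85). Adjusted p in these 20 genes was between 0.0537 and 0.233.

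In naïve ESCs the same rescue lines differed less in most of these genes. The naïve difference had the same sign in 24 of the 27 and was smaller in size in 26, and in 16 the naïve libraries were separated the same way, where 8.53% of autosomal genes were above and 8.19% below. In naïve ESCs 6 autosomal genes were called (0.044%). Only Tet2 and Cyp4a12b were called in both media, with naïve differences of 2.16 ± 0.34 and 1.40 ± 0.25. The other naïve differences of the stable calls were 0.55 for Inadl, 0.82 for Slc15a2 and 0.63 for Gm11815. The genes were chosen for their primed difference, and this choice by itself favours smaller naïve values. A test of the difference between media called none of the 14185 genes in limma (489 had an unadjusted p under 0.05) and none in limma-voom, and the lowest adjusted p was 0.348, that of H19. Peg10, 2410004A20Rik and Kndc1 had naïve differences of 0.03, -0.35 and -0.15, but an adjusted p of 0.976 each for the difference between media. Peg10 was at 11.83 in primed WT libraries on average and at 5.68 to 5.86 in all naïve libraries, and H19 had at most 18 reads in naïve libraries, so the naïve lines had little of either RNA to compare.

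**Figure D5:**
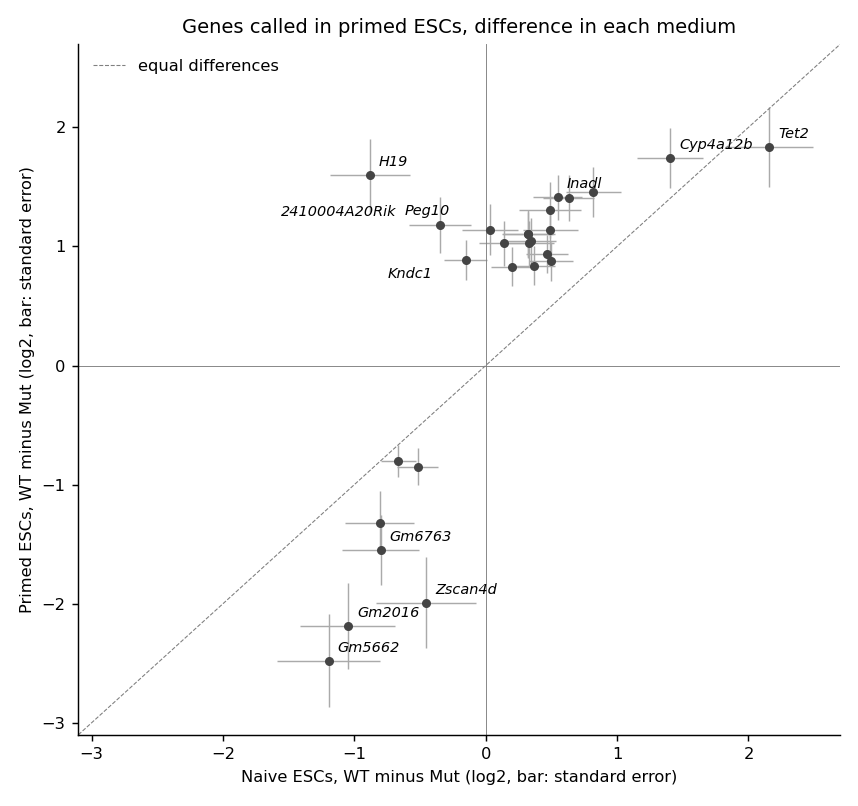
Difference WT minus Mut of the 27 genes in primed ESCs (log2, y axis) against that in naïve ESCs (log2, x axis), with bars for the standard error of the fit and a dashed line of equal differences. Tet2 and Cyp4a12b lie near the line, Gm5662 and the other lower genes lie between the line and the y axis, and H19 lies on the other side of zero in naïve ESCs, at -0.88.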

How the data were processed

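RNA-seq was made from poly(A)-selected, non-directional libraries of mouse ESCs of the Tet2 KO line with WT or catalytic mutant TET2, 3 per line and medium. Per the submitters' processing notes and the methods, the authors trimmed reads with Trim Galore 0.3.3, aligned them to mm9 with TopHat2 2.0.9, gave a read that fitted several places equally well to a random place among these, and obtained raw counts for each gene. The deposited values are log2 values after the variance-stabilising transformation of DESeq2, with the authors' size factors included. Single reads, not molecules, were counted, and the read length limits which near-identical genes can be separated. The version of DESeq2 is not given in the sources used here.

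Inverting the transformation gave whole reads (within 0.1) for 100% of the values, which served for depth and for limma-voom. Samples were grouped by their labels. Of 26061 genes, 26036 were placed on mm9 by symbol in the GENCODE annotation, 24906 of them on autosomes, and 25 were not placed. Genes with a mean of 1 or more above the lowest value were tested with limma 3.58.1 (R 4.3.3), in 1 fit of all 12 libraries with 4 groups, a variance trend and Benjamini-Hochberg adjustment over the 14185 genes, called at an adjusted p under 0.05. The SE is that of the fit. On simulated data with 100 of the 14185 genes shifted by 1 and 100 by 2 in this comparison, 73 and 99 were recovered and 9 others were called. The simulated noise was drawn independently for each gene and library. It held no length trend and no effect of single libraries, so these rates need not hold for the real libraries.

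The members, the 35 gene lists and the alternatives were chosen with earlier results of these data known. Of 1605 list entries, 20 were matched to the table through RefSeq synonyms and 21 were not matched. Lists are described by counts without a set test. Genes named are Tet2 and Setdb1, all called autosomal genes, the 10 largest uncalled differences each way without overlap at a mean at least 3 above the lowest value, up to 2 each way without overlap in each list, and methylation and pluripotency genes set beforehand. Other named genes (list members in full, neighbours, Cyp4a12a) were chosen after their values were seen. Promoters came from RefSeq (GRCm38.p6 table) and were placed on mm9 by exact match. Exon length is that of all annotated exons joined, with 20 bins for centring. Alternatives were other filters, no trend, robust moderation, centring, quantile normalization, the replicate block, the 6 primed libraries alone, limma-voom, library weights, adjustment over autosomes, another threshold and each library left out. Figures were drawn with matplotlib 3.10.9 in Python 3.11.15, and tables made with pandas 2.3.3 and numpy 2.4.6. The repeat table was not used here.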

Additional observations from a re-analysis of the deposited data

Results flagged for a closer look

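H19 was separated in opposite directions in the media. WT libraries were above all mutant ones in primed ESCs and below them in naïve ESCs, and the primed minus naïve difference was 2.48, which did not pass adjustment over all genes (limma, adjusted p = 0.348, unadjusted p = 2.5e-05). In naïve ESCs H19 had 7, 0 and 0 reads with WT TET2 and 14, 10 and 18 with the mutant. Col5a2, a fibrillar collagen chain, was also separated in opposite directions, at 7.39, 6.77 and 7.58 against 6.41, 6.14 and 6.58 in primed ESCs, with 1, 1 and 3 reads against 10, 6 and 9 in naïve ESCs, near the lowest value, and with a primed minus naïve difference of 1.36 (adjusted p = 0.976).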

How the results depend on the processing

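With the replicate number as a block, 209 genes were called, 98 autosomal ones higher and 92 lower, against 36, 20 and 7 without it, and all 27 autosomal calls were among them. The deviations of same-numbered primed libraries correlated at 0.161, -0.0652 and 0.189, and WT serum 1 correlated better with Mut serum 2 (0.207) than with Mut serum 1, so the numbers were not taken to pair the libraries. Same-numbered naïve libraries correlated at 0.586, 0.30 and 0.385. The block with the 6 primed libraries alone gave 503, 251 and 220 calls, with limma-voom 115, 55 and 49, and with exon-length centring 156, 70 and 64. The 6 primed libraries alone without a block gave 18 calls in all, 9 higher and 0 lower autosomal ones by limma, with 1222 lower ones at an unadjusted p under 0.05. A filter of 3 above the lowest value gave 23, 12 and 4, an adjusted p of 0.1 gave 74, 39 and 26, and library weights, estimated gene by gene because the likelihood method did not converge, 3035, 1454 and 1456, with 1 gene called for the difference between media. Lower autosomal calls were 13 after centring on the library median, 14 after quantile normalization, 4 with limma-voom and 4 without a filter. With 1 library left out, calls ranged from 12 to 82 in all, from 5 to 33 higher and from 0 to 35 lower. No called gene changed sign in any alternative, and exon-length centring was added after the values were seen.
Of the 149 named genes 8 changed sign somewhere, all uncalled and small. With 1 library left out, Dazl ranged from -0.39 (without Mut serum 2) to 0.55 (without Mut serum 3), and centring made it -0.0049. Dnmt3a ranged up to 0.082 (without Mut serum 2) and was 0.0105 without WT serum 2. Jmjd6 ranged from -0.11 (without Mut serum 3) to 0.16, and was -0.082 with library weights and -0.0010 within length bins with and without the block. Prmt5 ranged from -0.075 to 0.16 and Trim28 from -0.0018 to 0.22, both lowest without Mut serum 3. Setdb1 ranged from -0.14 (without Mut serum 1) to 0.38 (without Mut serum 3), and was -0.0045 within length bins with and without the block. Sox2 ranged from -0.093 (without Mut serum 2) to 0.20, with -0.053 and -0.026 without WT serum 3 and Mut serum 1. Nanog became 0.050 after quantile normalization. The cause of these changes was not tested. Depth limits Slc15a2 and Gm11815 most, with 0 to 3 reads in mutant libraries.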
